A study of Saccharomyces cerevisiae with 18 samples.

Results

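The comparison described here is the response of budding yeast (Saccharomyces cerevisiae) that lacks FAR1 to its carbon source: far1Δ cultures grown on ethanol set against far1Δ cultures grown on glucose. Its members are the 6 arrays whose labels name the far1Δ strain, 3 per carbon source and described as independent, out of 18 in the series, and the features are the 5545 genes that were tested of 5656 genes with a probe set of their own. All groups share the haploid background W303-1A, labelled MATa with the alleles ade2-1, trp1-1 and ura3-1, with his3-11, leu2-3,112 and can1-100, and all were sampled in exponential growth in synthetic complete medium. The groups used are far1Δ on ethanol, far1Δ on glucose, a FAR1OE strain on each carbon source, which overexpresses a tagged Far1 from the plasmid pTet-FAR1-15Myc, and the wild type on each carbon source. In far1Δ the design text gives the deletion as far1::his3, so these 6 cultures also carry a marker gene that the wild type lacks. Total RNA was labelled as biotinylated cRNA and hybridised to Affymetrix Yeast Genome S98 arrays, and the deposited values are linear intensities, one per probe set and array.

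Far1 is known for 2 tasks in cells exposed to mating pheromone: it inhibits the G1 form of the Cdc28 kinase, and it links the freed G protein subunits to the polarity proteins around Cdc42. Yeast on glucose ferments it to ethanol and represses the genes for other carbon sources. On ethanol the cell oxidises the alcohol to acetyl-CoA, builds sugars from it by the glyoxylate cycle and gluconeogenesis, and draws its ATP from respiration, under activators such as Adr1, Cat8 and the Hap2/3/4/5 complex and the kinase Snf1. The series' title concerns Far1 overexpression, RNA and protein content and the regulator Sfp1. The question here is which genes distinguish ethanol from glucose growth when FAR1 is absent.

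The FAR1 probe set was read on every array before any comparison. FAR1 intensity was 4.8, 5.3 and 2595.7 on the far1Δ arrays labelled ethanol 1, 2 and 3, and 4.9, 7 and 4.1 on the far1Δ glucose arrays. The array labelled ethanol 3 therefore goes against its label, with a FAR1 signal inside the range of 556.9 to 2722.3 seen on 5 of the 6 FAR1OE arrays and far above the 17.9 to 29.3 of the wild type. Among the FAR1OE arrays the one labelled ethanol 3 read 3.3. CDC42, a cell polarity gene, followed the same pattern on ethanol, with 175.3, 311.4 and 1086.6 on the far1Δ arrays and 1465.9, 1778.4 and 213.1 on the FAR1OE arrays. HIS3, the deletion marker, read 150, 214.1 and 135.5 on the far1Δ ethanol arrays and 245.3, 340 and 194.5 on the far1Δ glucose arrays, against 127.2 to 291.2 in FAR1OE and 6.4 to 10.2 in the wild type. HIS3 therefore sets both modified strains apart from the wild type, but does not tell far1Δ from FAR1OE arrays. Results below are given for all 6 arrays, and list counts that change without this array are given both ways.

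The mating type was checked in the same way. The alpha-specific pheromone gene MF(ALPHA)1 read 549.2, 819.9 and 445.7 in far1Δ on ethanol and 1818.4, 2157.9 and 1894.4 on glucose, and all 5 tested alpha-specific genes read at least 57.4 on the far1Δ glucose arrays. The a-specific genes stayed near the floor: STE2, the alpha-factor receptor, lay between 0.1 and 2.1 on the far1Δ arrays, and MFA1, MFA2, AGA2, BAR1 and STE6 did not exceed 11.4 there. The labels give MATa, but the defining transcripts of that mating type were at or near the floor and those of the opposite one were not.

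**Figure D1:**
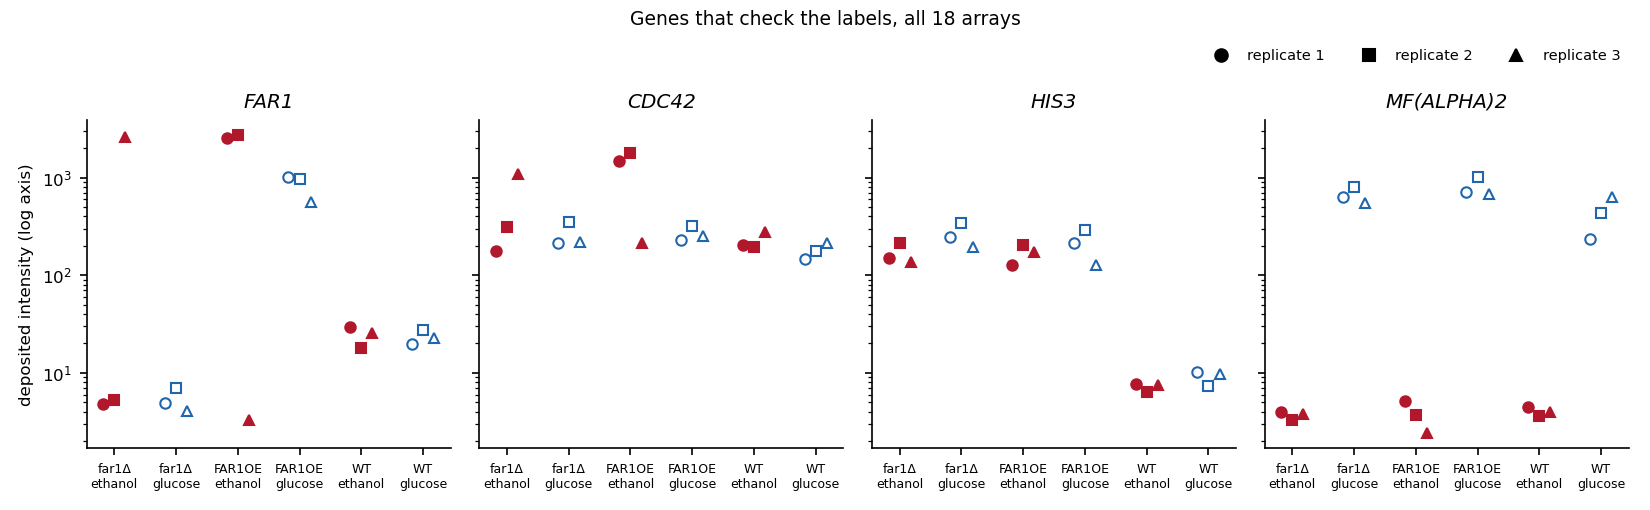
Deposited intensity (log axis) of FAR1, CDC42, HIS3 and MF(ALPHA)2 on each of the 18 arrays, by strain and carbon source; filled red symbols are ethanol, open blue symbols glucose, and circle, square and triangle are replicates 1, 2 and 3. The far1Δ array labelled ethanol 3 stands at 2595.7 for FAR1 while the other 5 far1Δ arrays lie between 4.1 and 7.

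The far1Δ arrays had median intensities of 12.6, 23.8 and 19.4 on ethanol and 11, 16 and 11.9 on glucose, so they were quantile-normalised on the log2 scale before testing. Their pairwise correlations over the tested genes were 0.960 to 0.978 within ethanol, 0.966 to 0.975 within glucose and 0.817 to 0.846 between the carbon sources. RNA and labelling controls also moved with the carbon source: the log2 ratio of 3′ to 5′ probe sets averaged 0.75 on ethanol and 0.57 on glucose for actin, 1.27 and 0.81 for the TATA-binding protein gene YER148w, and 1.86 and 1.34 for YER022w. For the spike-in control BioDn the log2 ratio of 5′ to 3′ probe sets averaged -0.82 on ethanol and -1.68 on glucose. The groups did not overlap in any of these ratios. The exact two-sided permutation p was 0.1 each, the smallest that 3 arrays against 3 allow. The part of these ratios in the results below was not tested. On arrays of pooled cells, a change in RNA per cell and a change in the share of cells that express a gene cannot be told apart.

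Ethanol growth changed the signal of 2378 of 5545 tested genes in far1Δ, 42.9% of them, at an adjusted p under 0.05 (limma's moderated test, Benjamini-Hochberg over all tested genes). Of these, 1204 genes (21.7%) were higher and 1174 (21.2%) lower on ethanol, and 633 and 441 of them differed by at least 2-fold. Changes are given as log2 differences of the normalised values, ethanol minus glucose, with the standard error of the limma fit and 3 arrays a group; a difference of 1 is a 2-fold change. Intensities quoted per array are the deposited ones, and statements on whether groups overlap use the normalised values, by which 2921 genes (52.7%) separated the 3 ethanol from the 3 glucose arrays. Without the array labelled ethanol 3, 2104 genes (37.9%) were called, 1097 higher (19.8%) and 1007 lower (18.2%), and 1964 genes were called in the same direction both ways, which is 82.6% of the calls with that array and 93.3% of those without it. The balance of directions depends on the scaling: with array medians centred in place of quantiles, 1050 genes were higher and 1489 lower, and on the deposited scale 1477 were higher and 372 lower. The median of all tested genes was -0.01, -0.11 and 0.36 under these scalings.

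The enzymes that turn ethanol into acetyl-CoA changed by isozyme. Of 12 tested genes 7 rose and 4 fell (6 and 4 without the array labelled ethanol 3), with a median of 0.69 against -0.01 over all tested genes. ADH2, the alcohol dehydrogenase that oxidises ethanol, read 3385.9, 3355.2 and 3008.6 on ethanol and 10.3, 14.7 and 16.3 on glucose, a rise of 7.84 ± 0.34 (adjusted p = 2.79e-12, limma). ADH1, the fermentative isozyme that makes ethanol, read 627.1, 830.4 and 569 on ethanol and 3517.1, 3986.9 and 3882.5 on glucose and fell by 2.35 ± 0.16. All 3 ethanol arrays lay above all 3 glucose arrays for ADH2 and below them for ADH1, so this pair of isozymes moved in opposite directions. ACS1, an acetyl-CoA synthetase repressed by glucose, read 1065.2, 1705.6 and 1578 on ethanol and 9.3, 25 and 10.7 on glucose, a change of 6.71 ± 0.25. ACS2, the second acetyl-CoA synthetase, rose by 0.74 ± 0.18. Among aldehyde dehydrogenases the mitochondrial ALD4 rose by 4.76 ± 0.18 and the cytosolic ALD6 by 0.84 ± 0.25. ACS2 and ALD6 were not called under other scalings, at 0.15 and 0.34 with array medians centred and 0.63 and 0.82 on the deposited scale. ALD5, another mitochondrial form, fell by 1.11 ± 0.30. ALD2 rose by 1.25 ± 0.35 with all arrays and 0.81 without the array labelled ethanol 3, where it was no longer called. ALD2 is nearly identical in sequence to ALD3, so its probe set may read both.

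The glyoxylate cycle and gluconeogenesis held the highest median of the lists examined, 5.09, with 8 of 10 tested genes higher and 1 lower, with or without the array labelled ethanol 3. ICL1, isocitrate lyase, read 1993.8, 2621.8 and 2181.5 on ethanol and 6.8, 8.1 and 7.6 on glucose and rose by 8.26 ± 0.17 (adjusted p = 1.79e-16, limma). MLS1, malate synthase, read 1683.1, 2461.4 and 1948.4 on ethanol and 3.8, 1.4 and 2.7 on glucose, a rise of 9.63 ± 0.34. Its glucose readings were among the lowest on the array, so the size depends on the constant added before taking logarithms: 0.4 was used, and with 2.9 the difference was 8.70. The value with this larger constant is given beside the other called genes named here that it moves by over 1.5-fold, all of which were still called. FBP1 and PCK1, the fructose-bisphosphatase and the carboxykinase of gluconeogenesis, rose by 8.43 ± 0.28 (7.34 with the larger constant) and 7.51 ± 0.30. MDH2, the cytosolic malate dehydrogenase, rose by 4.06 ± 0.22, CIT2, the peroxisomal citrate synthase, by 2.34 ± 0.24, and IDP2, the cytosolic NADP isocitrate dehydrogenase, by 6.13 ± 0.29. The pyruvate carboxylases differed from each other, with PYC1 higher by 2.02 ± 0.23 and PYC2 at -0.15 ± 0.13 (adjusted p = 0.355, limma). MAE1, the mitochondrial malic enzyme, fell by 0.86 ± 0.24, and was at -0.78 and not called on the deposited scale. Every gene named in this group except PYC2 separated the 2 carbon sources on all arrays.

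Transporters of organic acids and acetyl units mostly rose. In this list 11 of 16 tested genes rose and 3 fell, with a median of 2.38. JEN1, the lactate and pyruvate permease, read 418.7, 611.1 and 510.8 on ethanol and 0.2, 0.3 and 0.3 on glucose, a difference of 9.48 ± 0.26 that became 7.23 with the larger constant. ADY2, an acetate transporter, read 513.2, 1383.6 and 570.3 on ethanol and 3.7, 3.1 and 2.9 on glucose and rose by 7.62 ± 0.32 (6.88 with the larger constant). The mitochondrial carriers CRC1, for acetylcarnitine, and SFC1, for succinate and fumarate, rose by 8.95 ± 0.57 and 8.59 ± 0.53, or 7.13 and 7.13 with the larger constant. The carnitine acetyltransferases CAT2, YAT1 and YAT2 rose by 6.97 ± 0.22, 6.26 ± 0.20 and 4.86 ± 0.37. ODC1, an oxodicarboxylate carrier, rose by 3.77 ± 0.21. The 3 carriers that fell were OAC1, for oxaloacetate and sulfate, which fell by 2.00 ± 0.43, DIC1, for dicarboxylates, at -1.50 ± 0.29, and CTP1, for citrate, at -1.20 ± 0.19.

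**Figure D2:**
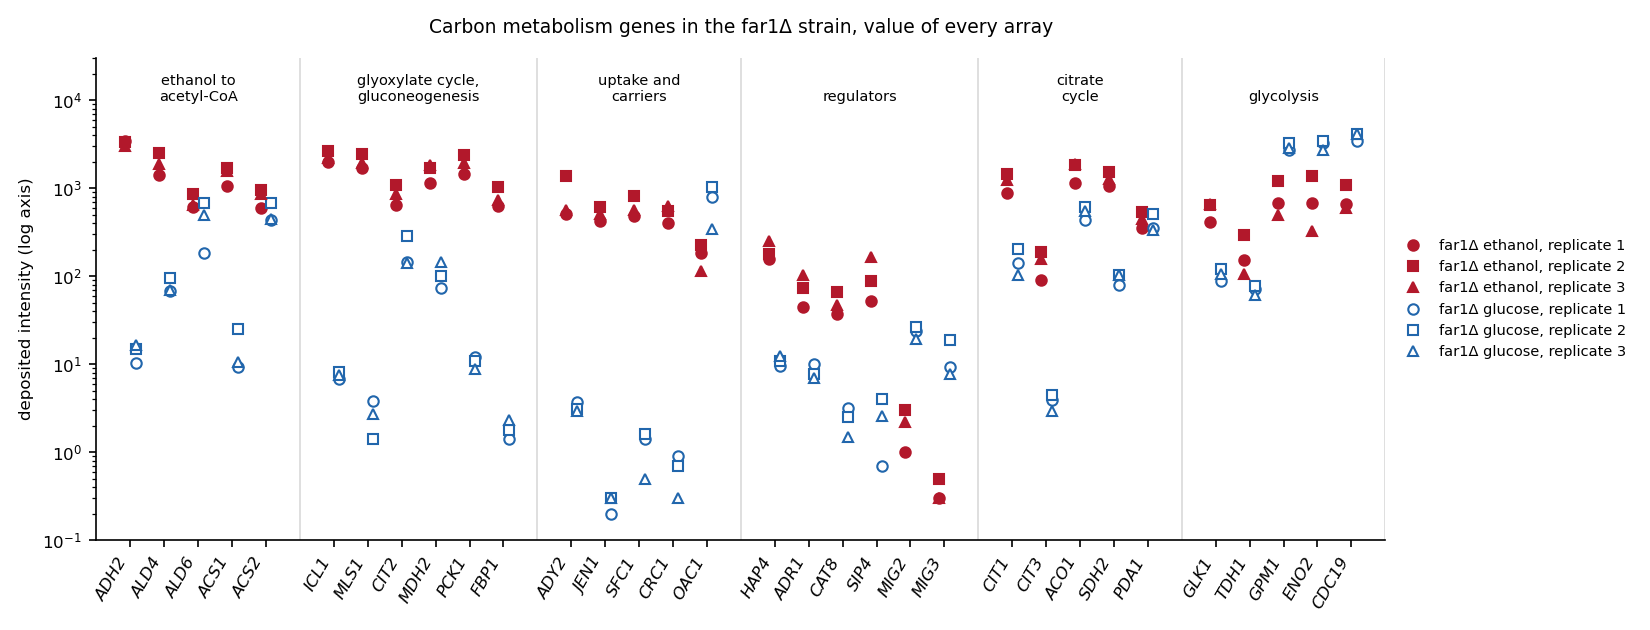
Deposited intensity (log axis) of genes of ethanol oxidation, gluconeogenesis and glyoxylate cycle, transport, regulation, tricarboxylic acid cycle and glycolysis in far1Δ; each point is an array, filled red for ethanol and open blue for glucose, with circle, square and triangle for replicates 1, 2 and 3. MLS1 stands at 1683.1 to 2461.4 on ethanol and at 1.4 to 3.8 on glucose, while CDC19 stands at 600.8 to 1096.5 on ethanol and 3434.8 to 4075.8 on glucose.

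Genes for the regulators of this programme rose or were not called, with none called lower: 11 of 18 tested (10 without the array labelled ethanol 3), with a median of 0.57. HAP4, the activating subunit of the respiratory activator complex, read 156.1, 178.7 and 247.2 on ethanol and 9.6, 10.8 and 12.3 on glucose, a rise of 3.79 ± 0.24. CAT8 and SIP4, activators that bind gluconeogenic promoters, rose by 3.87 ± 0.24 and 4.98 ± 0.46, or 3.00 and 3.95 with the larger constant. ADR1, the activator of ADH2, rose by 2.60 ± 0.26. USV1 and XBP1, zinc finger and stress-induced repressor genes, rose by 4.22 ± 0.62 and 3.96 ± 0.40, or 3.07 and 2.94 with the larger constant. HAP2, which encodes a DNA-binding subunit of the Hap complex, rose by 0.61 ± 0.17. HAP3, which encodes another, was at 0.51 ± 0.18, called with all arrays but not when any glucose array, ethanol 1 or ethanol 2 was left out (0.39 to 0.54). The partner HAP5 was at 0.36 ± 0.21 (adjusted p = 0.173, limma), and HAP1, the haem-dependent activator, at -0.39 ± 0.24.

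In the Snf1 pathway 4 of 17 tested genes rose and 5 fell (3 and 5 without the array labelled ethanol 3), with a median of 0.05. The number that rose is near the 21.7% called higher over all tested genes, of which 21.2% were lower. SIP2, a beta subunit of the kinase, read 89.4, 132.6 and 103.8 on ethanol and 9.1, 14.5 and 8.9 on glucose and rose by 2.91 ± 0.22. The other beta subunits, SIP1 and GAL83, were at 0.14 ± 0.20 and -0.30 ± 0.19, and neither was called. SNF1 itself was at 0.59 ± 0.19, called with all arrays but not without glucose 3 (0.54) or ethanol 1 (0.55). MIG2 and MIG3, repressors active on glucose, were at -3.67 ± 0.46 and -4.15 ± 0.50, MIG3 reading 0.3, 0.5 and 0.3 on ethanol and 9.2, 18.9 and 7.7 on glucose; with the larger constant they were at -2.63 and -2.24. MIG1, the best known member of that family, was at -0.71 ± 0.21, and not called on the deposited scale (-0.22) or without ethanol 2 (-0.52). NRG1, another glucose-dependent repressor, rose by 1.89 ± 0.47.

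Hexose transporters went in both directions. Among 15 tested genes of glucose sensing and transport 7 rose and 6 fell, against 21.7% higher and 21.2% lower over all tested genes. Their median was 0.45, but 0.20 without the array labelled ethanol 3, 0.05 with array medians centred and -0.07 without glucose 3. HXT1, a low-affinity transporter of glucose-rich medium, read 4.8, 4.2 and 2.7 on ethanol and 245.3, 390.4 and 192.8 on glucose and fell by 6.05 ± 0.26 (-5.30 with the larger constant). HXT3, also of low affinity, read 17.7, 24 and 21.7 on ethanol and 704.8, 775.6 and 797.3 on glucose and fell by 5.33 ± 0.21. HXT2 and HXT4, which are used at low glucose, fell by 3.56 ± 0.38 and 2.24 ± 0.32. HXT5, expressed in slowly growing cells, rose by 4.51 ± 0.31 (3.66 with the larger constant), and the high-affinity HXT6 and HXT7 by 3.04 ± 0.23 and 2.78 ± 0.23. HXT6 and HXT7 are nearly identical, so their probe sets cannot be taken as separate genes. SNF3, the sensor of low glucose, rose by 1.51 ± 0.18. RGT2, the sensor of high glucose, was at -0.74 ± 0.21, called with all arrays but not on the deposited scale (-0.26) or without ethanol 2 (-0.53). STD1 and MTH1, paralogous co-repressors below these sensors, differed in direction, at -2.68 ± 0.19 and 0.85 ± 0.25.

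Glycolytic genes were mostly lower on ethanol: 13 of 21 tested fell and 4 rose, with a median of -0.61. Without the array labelled ethanol 3 the numbers were 9 and 4. CDC19, pyruvate kinase, read 663.5, 1096.5 and 600.8 on ethanol and 3434.8, 4075.8 and 4068 on glucose and fell by 2.16 ± 0.19 (adjusted p = 3.97e-08, limma). ENO2, the enolase of glucose growth, read 681.2, 1354.9 and 322.9 on ethanol and 3234.4, 3421.9 and 2709.8 on glucose, at -1.99 ± 0.44 with all arrays and -1.41 without the array labelled ethanol 3. ENO2 has a near-identical paralogue. GPM1, phosphoglycerate mutase, fell by 1.71 ± 0.26. The 4 that rose were GLK1, glucokinase, at 2.31 ± 0.15, PFK26, a kinase that makes fructose 2,6-bisphosphate, at 1.99 ± 0.21, TDH1, a glyceraldehyde phosphate dehydrogenase isozyme, at 1.01 ± 0.31, and HXK1, a hexokinase, at 0.64 ± 0.17. TDH1 was not called without ethanol 1 (0.85) or ethanol 2 (0.75). PFK27, which makes the same product as PFK26, fell by 1.72 ± 0.28. The pair of PFK26 and PFK27 and the pair of GLK1 and ENO2 show both directions inside this pathway.

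The tricarboxylic acid cycle rose almost as a whole: 18 of 20 tested genes were higher and none lower (17 and none without the array labelled ethanol 3), with a median of 2.45. SDH2, the iron-sulphur subunit of succinate dehydrogenase, read 1043.5, 1508.4 and 1265.8 on ethanol and 79.7, 103.7 and 102.9 on glucose and rose by 3.90 ± 0.14. CIT1 and CIT3, mitochondrial citrate synthases, rose by 3.28 ± 0.19 and 4.86 ± 0.33 (CIT3 4.21 with the larger constant), and ACO1, aconitase, by 1.93 ± 0.18. KGD1 and KGD2, subunits of 2-oxoglutarate dehydrogenase, rose by 2.92 ± 0.19 and 2.26 ± 0.12. The genes that were not called belong to the pyruvate dehydrogenase complex, PDA1 at 0.18 ± 0.12 (adjusted p = 0.265, limma) and LAT1 at 0.34 ± 0.20. Their shared subunit LPD1, which also serves 2-oxoglutarate dehydrogenase, rose by 1.12 ± 0.25.

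Respiratory chain and ATP synthase genes encoded in the nucleus rose in 39 of 41 cases, with 1 lower and a median of 2.00. NDE2 and NDI1, the external and internal NADH dehydrogenases, rose by 5.32 ± 0.40 (4.58 with the larger constant) and 3.02 ± 0.22, and INH1, the inhibitor of ATP synthase, by 3.04 ± 0.28. COX5B, the subunit of cytochrome oxidase used at low oxygen, was the only one lower, with 2.1, 4.9 and 2.5 on ethanol and 42.6, 91.7 and 30.4 on glucose, a change of -4.19 ± 0.26 (-3.36 with the larger constant). Its aerobic counterpart COX5A, picked for that pairing after its values were seen, read 702, 921.8 and 532.9 on ethanol and 143.3, 180.4 and 183.3 on glucose, a change of 2.08 ± 0.16. Of 7 tested genes of the mitochondrial genome, COX1 and OLI1, subunits of cytochrome oxidase and ATP synthase, rose by 1.93 ± 0.26 and 0.69 ± 0.14. These 2 of 7 are near the 21.7% called higher over all tested genes. ATP6 was called only without the array labelled ethanol 3, at 1.13. The other 4, VAR1, ATP8, COX3 and COB, read at most 7.8 on all far1Δ arrays and were not called. OLI1 and the median of these 7, both at 0.69, turned to -0.22 with array medians centred, and with the mean of a gene's probe sets COX1 was at 0.48 and not called.

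Mitochondrial ribosomal protein genes rose in 49 of 71 cases with none lower (58 without the array labelled ethanol 3), with a median of 0.67. MRP20 read 44.9, 79.5 and 54 on ethanol and 14.1, 13.2 and 14.1 on glucose and rose by 1.58 ± 0.17. Peroxisome and fatty acid oxidation genes rose in 23 of 40 cases, with 1 lower. CTA1, the peroxisomal catalase, and POX1, acyl-CoA oxidase, rose by 6.14 ± 0.38 and 5.29 ± 0.54, or 5.22 and 3.20 with the larger constant. ANT1, the peroxisomal adenine nucleotide carrier, fell by 0.49 ± 0.17 and was not called without the array labelled ethanol 3 (-0.34). ANT1 was also not called without glucose 1 (-0.47), glucose 2 (-0.43) or ethanol 1 (-0.45), on the deposited scale (-0.06) or from the far1Δ arrays alone.

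Genes of lactate and glycerol metabolism went in both directions: of 12 tested 6 rose and 4 fell (7 and 3 without the array labelled ethanol 3). CYB2, lactate cytochrome c reductase, read 481.1, 787.6 and 660.7 on ethanol and 7, 6.5 and 6.3 on glucose and rose by 6.30 ± 0.23. In glycerol uptake and use, STL1, the glycerol symporter, rose by 7.09 ± 0.33 (4.76 with the larger constant), GUT1, glycerol kinase, by 4.70 ± 0.18, and GUT2, the mitochondrial glycerol phosphate dehydrogenase, by 5.62 ± 0.24. GPP1, the glycerol phosphatase of synthesis, read 54.9, 84.3 and 31.3 on ethanol and 818.3, 1090 and 601.4 on glucose, a change of -4.10 ± 0.33. GPD2, a glycerol phosphate dehydrogenase, fell by 2.56 ± 0.23, while its isozyme GPD1 was at 0.30 ± 0.16 (adjusted p = 0.15, limma), and called without the array labelled ethanol 3, at 0.44.

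Several isozyme and paralogue pairs took opposite directions. AAC1 and AAC3, mitochondrial ADP/ATP carriers of which AAC3 is the anaerobic form, were at 1.98 ± 0.19 and -2.25 ± 0.51 (AAC3 -1.30 with the larger constant). HYP2 and ANB1, the aerobic and hypoxic forms of initiation factor eIF5A, were at 0.61 ± 0.14 and -2.70 ± 0.45, with ANB1 at 2.1, 6.3 and 5.4 on ethanol and 34.4, 45 and 7.1 on glucose. SSA1 and SSA2, cytosolic Hsp70 chaperones, were at 1.40 ± 0.14 and -2.10 ± 0.20, and PGM2 and PGM1, phosphoglucomutases, at 2.03 ± 0.31 and -1.30 ± 0.20. Among glucose kinases GLK1 and HXK1 rose and HXK2, added after its values were seen, fell by 0.63 ± 0.17. In each of these 4 pairs both members were called with and without the array labelled ethanol 3. With array medians centred HYP2 turned to -0.35, and on the deposited scale it was at 0.13, called in neither. The HYP2 and ANB1 sequences and those of SSA1 and SSA2 are close enough that a probe set may read both members, so the size of each change is uncertain. Hypoxic genes as a list did not move one way: 6 of 16 rose and 5 fell (5 and 4 without the array labelled ethanol 3). The shares over all tested genes were 21.7% higher and 21.2% lower.

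**Figure D3:**
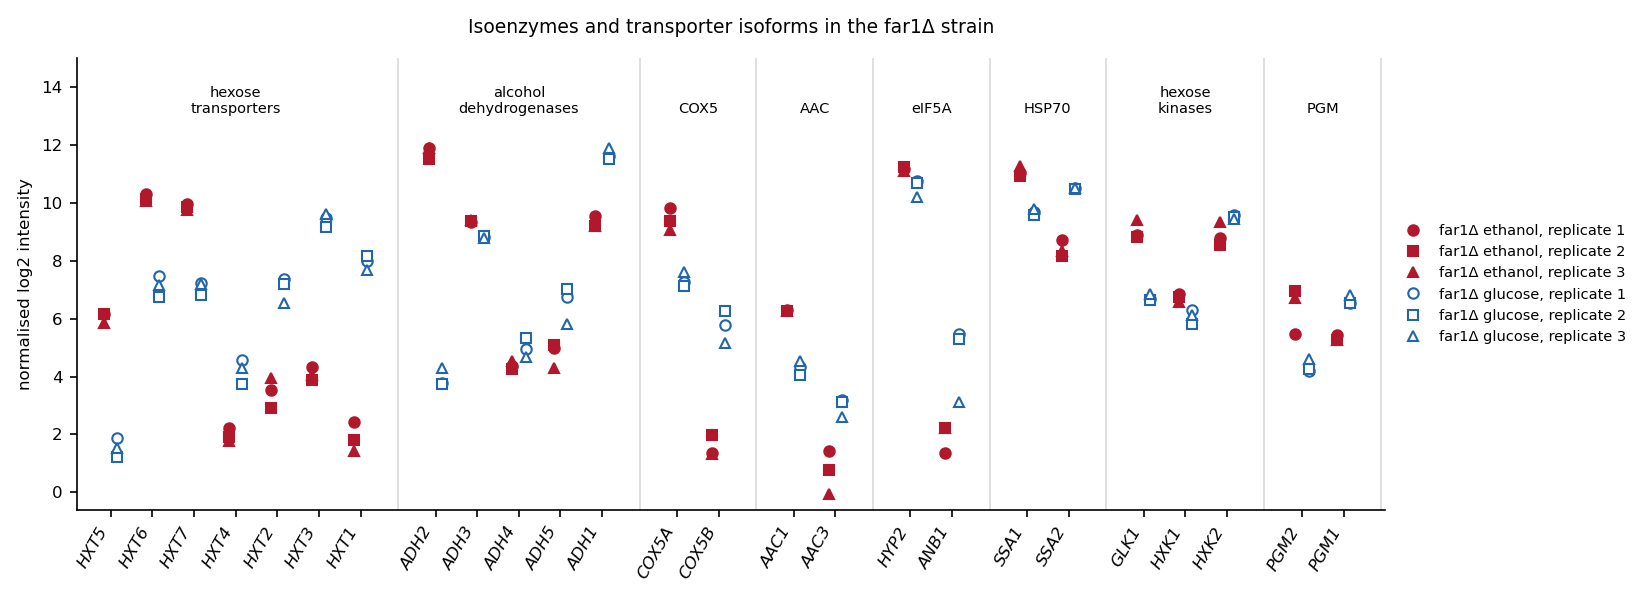
Normalised log2 intensity of hexose transporters, alcohol dehydrogenases and pairs of related genes on the 6 far1Δ arrays, filled red for ethanol and open blue for glucose, with circle, square and triangle for replicates 1, 2 and 3. Within each family some members are higher and others lower on ethanol: ADH2 differs by 7.84 and ADH1 by -2.35, COX5A by 2.08 and COX5B by -4.19.

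Stress and reserve genes rose. Among 32 tested Msn2/4 targets and regulators 23 rose and 1 fell (24 and 1 without the array labelled ethanol 3), with a median of 1.70. HSP12, a small membrane-associated stress protein, read 1835, 2925.1 and 1712.9 on ethanol and 11.3, 18.9 and 21.2 on glucose and rose by 7.03 ± 0.32. HSP30, a membrane heat shock protein, and DDR2, a multistress gene, rose by 7.05 ± 0.22 (6.07 with the larger constant) and 5.23 ± 0.15. MSN2, the activator itself, fell by 0.54 ± 0.13, and was at -0.10 and not called on the deposited scale. In glycogen and trehalose metabolism 17 of 20 tested genes rose and 1 fell (16 and 1 without the array labelled ethanol 3). GAC1, a glycogen regulatory subunit of phosphatase, rose by 4.46 ± 0.44 (3.55 with the larger constant), GLC3, the branching enzyme, by 3.42 ± 0.18, GPH1, glycogen phosphorylase, by 2.42 ± 0.25, and ATH1, acid trehalase, by 3.07 ± 0.19. Genes of synthesis and of breakdown thus rose side by side.

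Of 14 tested stationary phase genes 8 rose and none fell. SPG4, required for survival in stationary phase, read 597.6, 966.2 and 513.5 on ethanol and 0.5, 1.2 and 1.1 on glucose, a rise of 8.97 ± 0.46 (7.39 with the larger constant). Other genes with large rises were YIG1, REG2, RGI2 and YNL194C, at 8.13 ± 0.26, 8.11 ± 0.50, 7.29 ± 0.40 and 7.17 ± 0.32, REG2 being a glucose-repressed subunit of the Glc7 phosphatase. With the larger constant these were at 5.75, 6.11, 5.67 and 4.83. SNZ1 and SNO1, vitamin B6 genes that mark stationary phase, were at -0.83 ± 0.57 and -0.59 ± 0.63 and were not called. The cultures were labelled exponential. Chaperone genes divided, with 8 of 18 higher and 3 lower (7 and 4 without the array labelled ethanol 3). Of all tested genes 21.7% were higher and 21.2% lower. HSP82, an Hsp90, was at 1.32 ± 0.23 and its paralogue HSC82 at 0.06 ± 0.15, or -0.94 with array medians centred. In autophagy and vacuolar proteolysis 14 of 26 rose and 1 fell (11 and 1 without the array labelled ethanol 3), among them ATG8, the autophagosome ubiquitin-like protein, at 2.44 ± 0.17 and PBI2, a proteinase inhibitor, at 2.63 ± 0.20, with CPS1, a carboxypeptidase, at -1.23 ± 0.30, or -0.78 and not called on the deposited scale.

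Ribosome assembly genes fell almost throughout: 105 of 116 tested were lower and none higher (103 and none without the array labelled ethanol 3), with a median of -0.98. On the deposited scale, where the median of all genes is higher, 33 were called lower and none higher, with a median of -0.57. DBP2, an RNA helicase, read 44.1, 99.8 and 63 on ethanol and 235.5, 307.3 and 219.5 on glucose and fell by 2.12 ± 0.19. NSR1, a nucleolar protein of rRNA processing, fell by 1.97 ± 0.16, SDA1, needed for 60S export, by 1.61 ± 0.17 and NIP7, a 60S assembly factor, by 1.50 ± 0.14. RNA polymerase I and III subunits and their factors fell in 23 of 36 cases with none higher, and in 15 without the array labelled ethanol 3 and 8 on the deposited scale. RPA12, a Pol I subunit, and RPC40, shared by Pol I and III, fell by 1.59 ± 0.16 and 1.55 ± 0.18. Cytosolic ribosomal protein genes fell in 39 of 80 cases with none higher, at a median of -0.36, but in 19 with 1 higher without that array, and in 77 with array medians centred. Another 57 of the 137 genes of that list share their probe sets with a paralogue and were not tested, and those with a near-identical copy are uncertain. RPL7B and RPL13A, of the large subunit, fell by 1.94 ± 0.30 and 1.38 ± 0.18. Translation factor genes fell in 16 of 33 cases and rose in 2 (27 and 1 with array medians centred, 4 and 1 on the deposited scale), among them TIF4631, the eIF4G scaffold, which fell by 1.00 ± 0.32, and GCN3, an eIF2B subunit, at -1.21 ± 0.13. TIF4631 was not called on the deposited scale (-0.66) or without glucose 3 (-0.89) or ethanol 1 (-0.85).

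Growth regulators did not move together: 8 of 25 tested rose and 5 fell (6 and 5 without the array labelled ethanol 3), with a median of 0.15, and 4 rose with array medians centred. The number that fell is near the 21.2% called lower over all tested genes, of which 21.7% were higher. SFP1, named because the series' title concerns its product and after its values were seen, read 24.7, 45.4 and 42.1 on ethanol and 23, 33.2 and 25.2 on glucose, a difference of -0.03 ± 0.17 (adjusted p = 0.92, limma). CRF1, a co-repressor of ribosomal protein genes, rose by 1.96 ± 0.48 (1.16 with the larger constant), TPK2, a catalytic subunit of protein kinase A, by 1.22 ± 0.18, and TOR2, a TOR kinase, by 0.83 ± 0.15. RAS1, a Ras GTPase, fell by 1.77 ± 0.30, and PDE2, a cAMP phosphodiesterase, by 1.09 ± 0.18 (-0.64 and not called on the deposited scale). TPK3, another catalytic subunit, was at -0.86 ± 0.27, called with all arrays but not on the deposited scale (-0.39) or without glucose 2, glucose 3 or ethanol 1 (-0.82, -0.70 and -0.75).

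Amino acid biosynthesis genes were lower in 39 of 54 cases and higher in 4 (33 and 3 without the array labelled ethanol 3), with a median of -0.84. ARG3, ornithine carbamoyltransferase, LYS20, homocitrate synthase, and HIS1, of histidine synthesis, were at -2.20 ± 0.19, -2.05 ± 0.38 and -1.87 ± 0.20. GDH3, a glutamate dehydrogenase isozyme, read 305.1, 433 and 779.1 on ethanol and 7.4, 8.4 and 5.3 on glucose and rose by 5.90 ± 0.41. GCN4, the general activator of these genes, rose by 0.98 ± 0.14, in the opposite direction to most of the list, but was at 0.08 with array medians centred and 0.56 on the deposited scale, called in neither. Its control is largely translational, and protein was not measured. Sulfur assimilation and methionine genes fell in 16 of 29 cases with none higher (12 without the array labelled ethanol 3), at a median of -1.04. SUL2, a sulfate permease, read 5.2, 8.3 and 6 on ethanol and 71.4, 125.6 and 221.6 on glucose, a change of -4.52 ± 0.99, and MET3, ATP sulfurylase, read 14.8, 25.2 and 25.5 on ethanol and 98.9, 174.4 and 318.6 on glucose, a change of -3.34 ± 0.93. For both the glucose arrays spread widely among themselves and still lay above all ethanol arrays.

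In amino acid catabolism 9 of 25 tested genes were higher and 3 lower (8 and 4 without the array labelled ethanol 3), against 21.7% higher and 21.2% lower over all tested genes, and 13 were not called. ARO10 and ARO9, of aromatic amino acid breakdown, rose by 4.96 ± 0.56 and 3.97 ± 0.43, GDH2, the catabolic glutamate dehydrogenase, by 4.28 ± 0.22, and PUT4, the proline permease, by 3.23 ± 0.29. MEP2, an ammonium permease, read 67, 96.3 and 283.8 on ethanol and 328.6, 476.7 and 324.5 on glucose, at -1.71 ± 0.51 with all arrays and -2.35 without the array labelled ethanol 3, and not called without ethanol 1 (-1.47) or ethanol 2 (-1.30). Other genes with large falls were HMS2, a heat-shock-factor-like gene, at -5.21 ± 0.37 (-3.42 with the larger constant), OPT1, a peptide transporter, at -4.08 ± 0.46, ARI1, a reductase, at -3.62 ± 0.15, IRC7, a lyase of sulfur compounds, at -3.47 ± 0.37, and INA1 at -3.84 ± 0.19 (-3.25 with the larger constant). Of 25 tested ergosterol genes 1 rose and 5 fell, and of 18 phosphate genes 3 rose and 3 fell. Of 19 iron genes 4 rose and 4 fell (2 and 4 without the array labelled ethanol 3). The phosphate and iron counts and the number of ergosterol falls are near the 21.7% higher and 21.2% lower over all tested genes. PHO84, the phosphate permease, ranged from 115.6 to 709.8 on ethanol and from 14.5 to 399.3 on glucose.

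**Figure D4:**
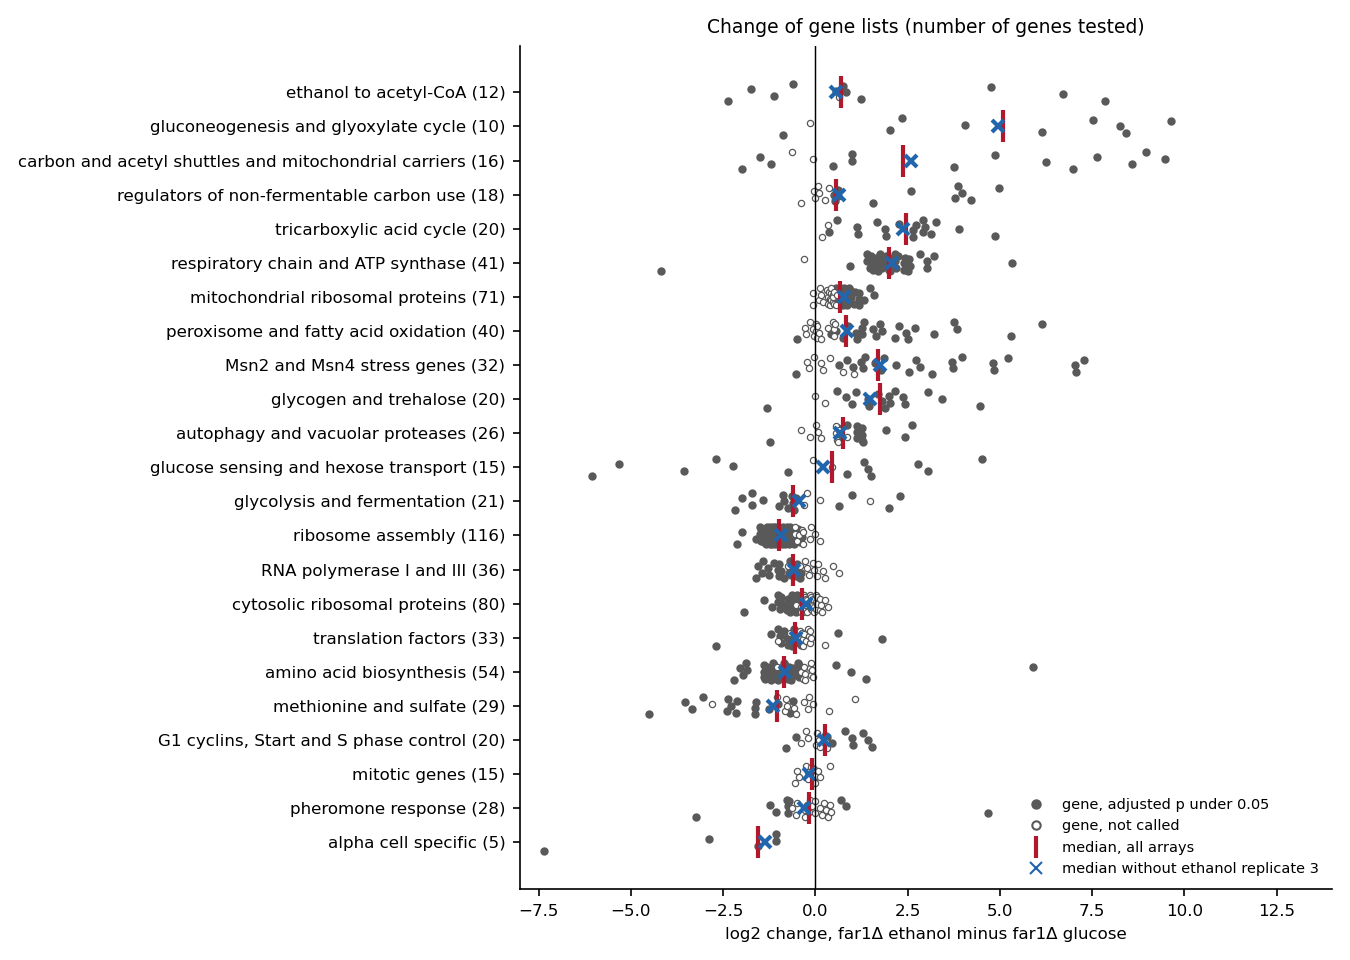
Log2 change (ethanol minus glucose, normalised values) of each tested gene in 23 gene lists in far1Δ; filled points have an adjusted p under 0.05, the bar is the median with all arrays and the cross the median without the array labelled ethanol 3. The median is 5.09 for gluconeogenesis and the glyoxylate cycle, 2.45 for the tricarboxylic acid cycle and -0.98 for ribosome assembly.

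Far1's own surroundings were examined next, since the strain lacks it. Of 20 tested genes of G1 cyclins, Start and S phase control 8 rose and 2 fell (6 and 2 without the array labelled ethanol 3). The shares over all tested genes were 21.7% higher and 21.2% lower. CLN1, a G1 cyclin, read 76.5, 107.8 and 113.4 on ethanol and 18.9, 32 and 35.1 on glucose and rose by 1.43 ± 0.18, and PCL1, a cyclin of the Pho85 kinase, by 1.30 ± 0.17. CLN2, the closest relative of CLN1, was at 0.02 ± 0.13 (adjusted p = 0.923, limma). CLN3, the most upstream cyclin, was at 0.03 ± 1.23, a spread too wide to read. SWI4, the DNA-binding part of the SBF activator, rose by 0.99 ± 0.23, and MBP1, that of MBF, by 1.03 ± 0.19. CDC34, the ubiquitin-conjugating enzyme of the G1 to S step, rose by 1.55 ± 0.32. CLB5, an S phase cyclin, fell by 0.52 ± 0.13, but was at -0.09 and not called on the deposited scale. None of 15 mitotic genes was called by limma (1 higher and 2 lower without the array labelled ethanol 3). Of 10 histone genes 4 were tested, of which the linker histone gene HHO1 rose by 0.86 ± 0.20 and the other 3 were not called; the remaining 6 have no probe set of their own.

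Of 28 tested pheromone pathway genes 7 fell and 3 rose (8 and 3 without the array labelled ethanol 3), with a median of -0.16. The number that fell is near the 21.2% called lower over all tested genes. On the deposited scale, where the median of all tested genes is 0.36, 1 was lower and 5 were higher, with a median of 0.23. SST2, which turns off the receptor's G protein, read 1.5, 2.4 and 5.4 on ethanol and 23, 29.2 and 18.3 on glucose and fell by 3.25 ± 0.44 (-2.41 with the larger constant). AGA1, an agglutinin subunit, fell by 1.23 ± 0.26, STE3, the a-factor receptor, by 1.06 ± 0.17 and STE4, the beta subunit of the G protein, by 0.78 ± 0.13. GPA1, the alpha subunit, fell by 0.71 ± 0.17. AGA1, STE3, STE4 and GPA1 were not called on the deposited scale, at -0.78, -0.75, -0.45 and -0.24. PRM4, a pheromone-regulated gene, read 179.9, 292.8 and 199.7 on ethanol and 6.3, 6 and 8.5 on glucose and rose by 4.67 ± 0.20. STE50 and STE11, an adaptor and a kinase of the cascade, rose by 0.82 ± 0.18 and 0.68 ± 0.19, STE11 at 0.51 and not called without the array labelled ethanol 3.

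The alpha-specific genes were all lower on ethanol, 5 of 5. MF(ALPHA)2 showed the largest fall of any named gene, with 4, 3.3 and 3.8 on ethanol and 627.7, 797.5 and 546.5 on glucose, a change of -7.36 ± 0.24 (adjusted p = 6.41e-14, limma), or -6.60 with the larger constant. The second alpha-factor gene, MF(ALPHA)1, fell by 1.56 ± 0.16, and SAG1, the alpha-agglutinin, was at -2.89 ± 0.24. In the polarity list around Far1's partner Cdc42, 2 of 15 rose and 2 fell. That compares with 21.7% higher and 21.2% lower over all tested genes. BEM1, the scaffold of polarity, was at 0.97 ± 0.23, and CDC24, the exchange factor that Far1 binds, at -0.12 ± 0.14. RSR1, the bud site GTPase, was at -1.21 ± 0.21 (-0.81 and not called on the deposited scale). CDC42 was at 0.81 ± 0.67 with all arrays and -0.11 without the array labelled ethanol 3.

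Marker genes of the strain were read as well. Of 7 tested, FAR1 included, 2 rose and 2 fell, against 21.7% higher and 21.2% lower over all tested genes. HIS3 fell by 0.69 ± 0.22 with all arrays and was not called without the array labelled ethanol 3. TRP1 read 291.2, 663.1 and 643.2 in far1Δ on ethanol and 186.6, 239.4 and 200.9 on glucose, against 197.4 to 549.4 in FAR1OE and 6.9 to 31.9 in the wild type, and rose by 1.28 ± 0.28. URA3, of uracil synthesis, read 39.6, 63 and 181.6 in far1Δ on ethanol and 125.8, 199.2 and 284 on glucose. On ethanol in FAR1OE it read 164.4, 163.1 and 52.7. The array labelled ethanol 3 was thus the highest of the far1Δ and the lowest of the FAR1OE ethanol arrays, as for FAR1 and CDC42. The change of URA3 in far1Δ was -1.50 ± 0.45 with all arrays and -2.13 without the array labelled ethanol 3. It was not called without glucose 3 (-1.15), ethanol 1 (-1.23) or ethanol 2 (-1.13). Like HIS3, TRP1 was thus high in both modified strains, although the labels give trp1-1 for all. ADE2 was at 0.54 (adjusted p = 0.0248, limma), while LEU2 and CAN1, at -0.77 and -0.61, were not called with all arrays. CAN1 read 15.1, 24.6 and 64.6 in far1Δ on ethanol and 37.6, 50.6 and 19.5 in FAR1OE on ethanol. Its arrays labelled ethanol 3 thus stood as for FAR1 and URA3, which was not so for ADE2, HIS3, LEU2 and TRP1.

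The array labelled ethanol 3 altered no other tested gene as strongly as FAR1. With it FAR1 was at 2.88 ± 2.18 and without it at -0.30, and neither value was called. Among genes called with all arrays, those it moved most were FUR1, SIP18, YNCB0005C and, described above, MEP2 and URA3. FUR1, of uracil salvage, read 231, 295.2 and 76 on ethanol and 379.6, 446 and 289.1 on glucose. It was at -1.12 ± 0.41 with all arrays and -0.44 and not called without the array labelled ethanol 3. FUR1 was also not called without glucose 1 (-1.01), glucose 2 (-1.16) or glucose 3 (-1.20), without the intensity trend, or from the far1Δ arrays alone. SIP18, a desiccation protein gene, read 22.3, 58.3 and 10.6 on ethanol and 1.3, 3.6 and 0.1 on glucose. It was at 3.74 ± 0.65 with the array labelled ethanol 3 (2.40 with the larger constant) and 4.36 without that array. YNCB0005C, a noncoding RNA gene, was at -1.95 ± 0.48 and -1.30. Of the genes called with all arrays, 414 were no longer called without that array, where 2 ethanol arrays remained, and 140 were called only then.

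The wild type gives the same comparison with FAR1 present, and the difference between the strains was tested directly as an interaction. In the wild type 2402 genes (43.3%) were called, 1241 higher (22.4%) and 1161 lower (20.9%), and 1831 were called in the same direction in far1Δ, 77% of the far1Δ calls and 76.2% of the wild type's, with 3 called in opposite directions. Across the 5545 tested genes the changes in far1Δ and in the wild type had a Pearson correlation of 0.908 and a Spearman correlation of 0.824, given as a description, since genes are not independent replicates. No gene was called for a difference between far1Δ and the wild type by limma, 0% of those tested, although 460 (8.3%) had an unadjusted p under 0.05, and the lowest adjusted p was 0.271. The median standard error of the difference was 0.29, and for 3381 genes (61%) the 95% interval of the difference lay within 1 log2 unit of 0. For the remaining genes the interval reached past a 2-fold difference in response. Leaving out 1 wild-type array called a single gene, PMP2 without glucose 3 and FET3 without ethanol 1.

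The genes nearest to a call were looked at after their values were seen. PMP2, a small proteolipid of the plasma membrane proton pump, read 994.6, 1731.8 and 933.9 in far1Δ on ethanol and 1768.5, 2187.1 and 1484.2 in far1Δ on glucose, a difference of -0.16, against 1.14 in the wild type. FET3, a multicopper ferroxidase of iron uptake, was at -0.63 ± 0.30 in far1Δ and 1.35 in the wild type, and TAX4 at 0.53 and 1.80. COA2, a cytochrome oxidase assembly factor, changed by 2.93 in far1Δ and 1.84 in the wild type. Among genes with large changes in far1Δ, the 95% interval of the difference between the strains included 0 for MLS1 at 9.63 and 9.31, ICL1 at 8.26 and 8.09, HXT1 at -6.05 and -5.94 and MF(ALPHA)2 at -7.36 and -7.10. Before adjustment it did not include 0 for RGI2, at 7.29 in far1Δ and 6.00 in the wild type, HSP12 at 7.03 and 5.44, CYB2 at 6.30 and 5.09, HMS2 at -5.21 and -4.09, COX5B at -4.19 and -3.39 and ARI1 at -3.62 and -4.11. List medians were given without a test, with gluconeogenesis at 5.09 in far1Δ and 5.11 in the wild type, the tricarboxylic acid cycle at 2.45 and 2.31, ribosome assembly at -0.98 and -1.03, and G1 and Start genes at 0.27 and 0.26.

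**Figure D5:**
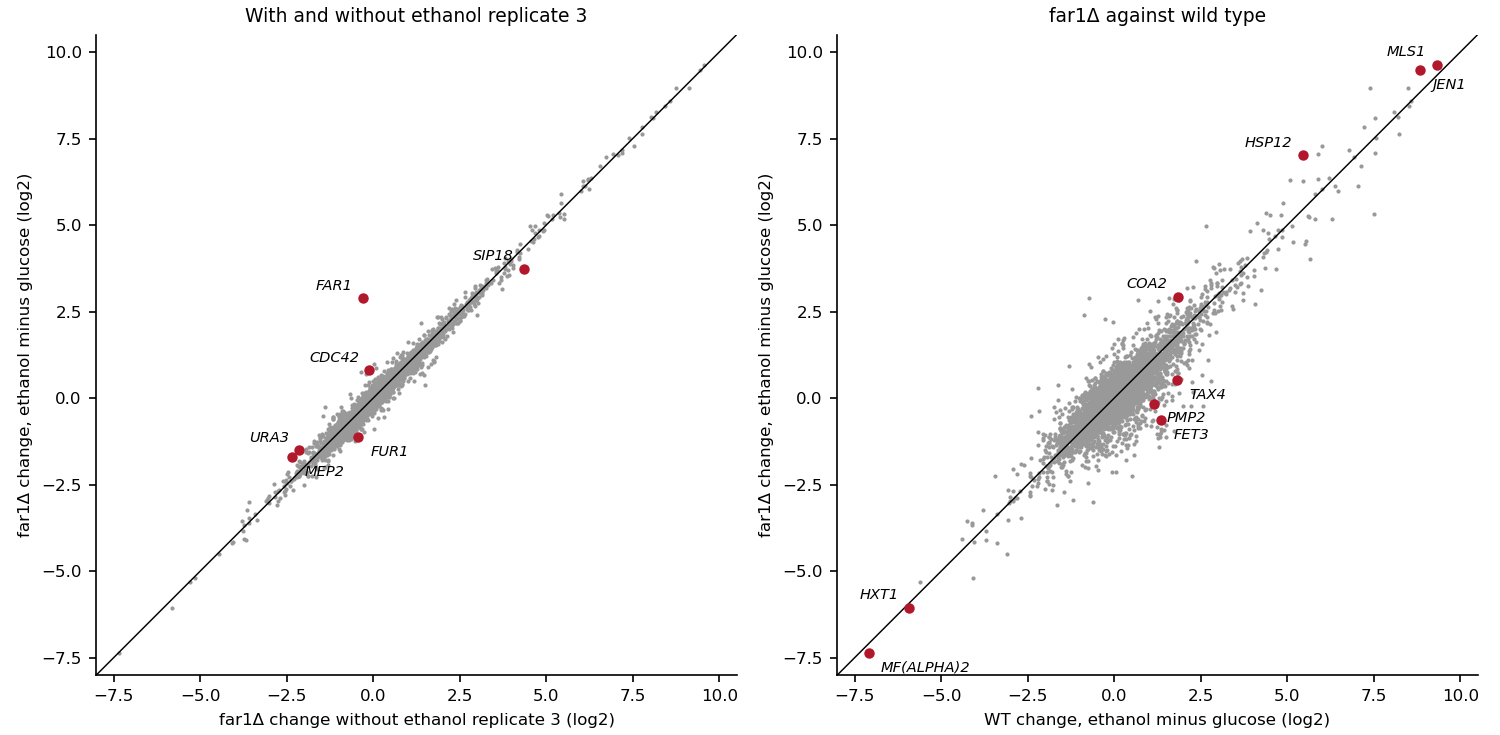
Log2 change (ethanol minus glucose) of each tested gene: left, far1Δ with all arrays against far1Δ without the array labelled ethanol 3; right, far1Δ against the wild type; the line marks equal changes. FAR1 leaves the line on the left, at 2.88 with all arrays and -0.30 without ethanol 3, and on the right the genes follow the line with a correlation of 0.908.

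Set against the FAR1OE strain, 9 genes (0.162%) differed in their response at an adjusted p under 0.05, 8 with a larger value in far1Δ and 1 with a smaller one. HSP12 rose by 7.03 in far1Δ and 3.83 in FAR1OE, a difference of 3.19 (adjusted p = 0.0082, limma), and CYB2 by 6.30 and 4.48. DLD3, a hydroxyglutarate transhydrogenase gene, fell by 2.98 in far1Δ and was at -0.21 in FAR1OE. This count rests on single arrays, among them the far1Δ and FAR1OE arrays labelled ethanol 3 with their FAR1 signals at odds with the labels: it was 17 without the far1Δ array labelled ethanol 3, 39 without both and 156 without the FAR1OE array glucose 2, and 1 to 4 without most other single arrays.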

How the data were processed

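The deposited table holds linear intensities for 9335 probe sets on 18 arrays, 3 per strain and carbon source; the submitters' processing notes name GCOS, and no further step or genome build is given in the sources used here. The authors' array scaling is not stated: trimmed mean intensities ran from 35.3 to 77.9, and array medians from 8.5 to 23.8.

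Of the probe sets, 6504 name 1 gene in the platform annotation, 328 several and 2443 none, and 60 are controls. A gene was read from its probe set with the highest mean. A pseudocount of 0.4 was added before taking log2 of the deposited intensity, arrays were quantile-normalised, and the 5545 genes above the 20th percentile of the array on at least 3 arrays were tested. All 18 arrays entered 1 limma fit (version 3.58.1, R 4.3.3) with 6 group means and an intensity trend, leaving 12 residual degrees of freedom; p-values were adjusted by Benjamini-Hochberg over all tested genes, with a threshold of 0.05. On simulated data with 100 genes changed at each size, this comparison recovered 65% of changes of 1 log2 unit and 95% of changes of 2. There were 12 false calls among the genes left unchanged of the 5545 tested. The simulated noise was independent and normal, and the changes were balanced up and down. In the data 42.9% of genes were called, so these rates need not hold there. The number of arrays limits the precision, and arrays give no counting depth.

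Genes were named by a rule, starting with FAR1 and the strain's markers. Next came the 15 largest rises and 15 largest falls called with and without the array labelled ethanol 3. These had no overlap between groups, and the higher group's mean was above the median of all genes. Any member of a list with up to 20 tested genes could be named, and the 4 largest changes each way of longer ones. Last came the genes that the array labelled ethanol 3 moved most among those called with all arrays. COX5A, HXK2, SFP1, PMP2, TAX4 and COA2 were added after their values were seen. The members, the lists and the array left out were chosen with earlier results of these data known. Alternatives covered the scaling, pseudocount, filter, probe set rule, intensity trend, a replicate block, the arrays fitted and each array left out. Sequences and coordinates were not used here.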

Additional observations from a re-analysis of the deposited data

Results flagged for a closer look

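Genes whose response to ethanol differed between far1Δ and FAR1OE by limma's test of the difference are given with the difference, far1Δ minus FAR1OE, on the log2 scale. HSP12 differed by 3.19 (7.03 in far1Δ, 3.83 in FAR1OE) and INO1, inositol phosphate synthase, by 2.14 (4.59 and 2.44). CYB2 differed by 1.83 (6.30 and 4.48), ROM1 by 1.46 (2.38 and 0.92) and COA2 by 1.22 (2.93 and 1.71). PHO3, an acid phosphatase, differed by 1.15 (-0.71 and -1.86), ABF1, a general DNA-binding factor, by 1.02 (0.53 and -0.50) and MIA40, of mitochondrial protein import, by 0.95 (1.50 and 0.55). DLD3 differed by -2.77 (-2.98 and -0.21). Their adjusted p-values ran from 0.0082 for HSP12 to 0.0453 for ABF1, INO1 and MIA40. Groups of 3 arrays were not tested for single outlying arrays.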

How the results depend on the processing

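The number of genes called between ethanol and glucose in far1Δ stayed between 2083 and 2220 when each of the 6 arrays was left out in turn, and within 1.5 times of 2378 in every alternative run, from 1849 on the deposited scale to 2539 with array medians centred. The count for far1Δ minus wild type ran from 0 to 1 when 1 array was left out, and it was 1 (PMP2) with the mean of a gene's probe sets. The count for far1Δ minus FAR1OE ran from 1 to 156 when 1 array was left out, with 156 without FAR1OE glucose 2, 19 without FAR1OE ethanol 1, 17 without far1Δ ethanol 3, 10 without far1Δ glucose 3, 4 without far1Δ glucose 1, 2 without far1Δ ethanol 2, FAR1OE ethanol 3 or FAR1OE glucose 1, and 1 without far1Δ ethanol 1, far1Δ glucose 2, FAR1OE ethanol 2 or FAR1OE glucose 3. It was 39 without both arrays labelled ethanol 3, 1 (HSP12) with array medians centred, on the deposited scale or from the arrays of the 2 strains alone, 3 with the pseudocount of 2.9 and 3 with the replicate block. HSP12 was in each of these smaller sets. With the replicate number as a block, 2344 genes were called between ethanol and glucose. Deviations of same-numbered far1Δ arrays correlated at 0.127, 0.132 and 0.0737. Each array correlated best with its own number, as a hint from the data, and pairs of unlike number ran from -0.136 to 0.0143. The labels do not say that the numbers pair cultures, and a pairing or shared batch by number was not tested. Of 178 named genes called in far1Δ and followed through the alternatives, 147 kept their call and direction in all 15 alternatives. Directions reversed with array medians centred for HSC82 (-0.94, called), HYP2 (-0.35) and OLI1 (-0.22), and with the mean of a gene's probe sets for OLI1 (-0.088). On the deposited scale, where the median of all tested genes is 0.36, list medians near 0 turned positive for mitotic (0.32), pheromone (0.23), polarity (0.39), ergosterol (0.04) and hypoxic genes (0.15). Other alternatives turned the sign of further list medians, among them glucose sensing and transport (-0.07 without far1Δ glucose 3). The causes were not tested. Genes near the bottom of the intensity scale have sizes that depend on the added constant.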
